A study of Homo sapiens with 14 samples.

Results

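Cathepsins are the proteases of the lysosome, and their transcripts were followed here in a melanoma line under a BRAF inhibitor. The group was chosen by symbol: every probe that the platform annotation assigned to CTSA, CTSB, CTSC, CTSD, CTSF, CTSH, CTSK, CTSO, CTSS or CTSZ, which gave 15 probes for 10 genes out of 30113 probes and 20046 genes that could be named. CTSC was covered by 4 probes, CTSB and CTSH by 2 each and the other genes by 1 each. WM9, an established human melanoma cell line, was kept in 10 µM PLX4720, which inhibits the BRAF kinase, for 12, 24, 48, 60, 72 or 96 h, or in its solvent DMSO for 96 h. Each of these 7 groups had 2 arrays, called biological replicates in the design text, and the labels name no genetic change between the groups, which all came from this line. The control was sampled at 96 h alone, so at every earlier time the drug and the hours in culture cannot be told apart. Nothing in the labels says whether the replicates were separate cultures, so p-values measure the spread between these arrays, which may be partly technical.

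Cathepsins are made as inactive precursors in the secretory pathway. Most carry a mannose 6-phosphate tag that receptors use to divert them from the Golgi to the lysosome, where low pH and cutting by other proteases activate them. By the residue that does the cutting, CTSD is an aspartic protease, CTSA a serine carboxypeptidase and the other 8 members papain-like cysteine proteases. Besides turning over protein inside the cell, several are released by tumour cells and cut the surrounding matrix. Transcription of lysosomal genes is controlled in part by the MiT/TFE factors TFEB, TFE3 and MITF, the last of which is also the lineage factor of melanocytes, and these bind DNA at E-boxes with the core letters CACGTG.

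The promoters are shown because the members differ in these letters. RefSeq promoter windows of GRCh38.p14, from 250 bases before to 50 bases after the annotated start, were used for 6 members, matched by symbol. CTSB, CTSK, CTSO and CTSS are not among them. The 130 bases before the start are printed 5′ to 3′ along the gene's strand, with each CACGTG in capitals. They lie at chr20:45891205-45891334 on the plus strand (CTSA), and on the minus strand at chr11:1763928-1764057 (CTSD), chr11:66568607-66568736 (CTSF), chr11:88337737-88337866 (CTSC), chr15:78945047-78945176 (CTSH) and chr20:59007255-59007384 (CTSZ).
CTSA: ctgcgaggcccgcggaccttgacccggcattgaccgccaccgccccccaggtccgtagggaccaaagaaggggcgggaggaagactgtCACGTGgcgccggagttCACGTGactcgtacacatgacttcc
CTSD: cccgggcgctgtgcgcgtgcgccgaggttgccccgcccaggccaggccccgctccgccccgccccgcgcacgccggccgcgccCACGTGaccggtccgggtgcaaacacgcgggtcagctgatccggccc
CTSF: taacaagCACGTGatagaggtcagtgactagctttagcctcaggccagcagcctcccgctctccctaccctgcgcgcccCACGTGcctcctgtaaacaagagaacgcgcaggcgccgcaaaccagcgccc
CTSC: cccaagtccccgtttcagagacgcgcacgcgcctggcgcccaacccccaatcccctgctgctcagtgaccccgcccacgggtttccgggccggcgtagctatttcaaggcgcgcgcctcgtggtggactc
CTSH: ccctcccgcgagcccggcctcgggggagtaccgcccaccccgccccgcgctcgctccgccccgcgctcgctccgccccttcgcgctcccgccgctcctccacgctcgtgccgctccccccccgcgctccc
CTSZ: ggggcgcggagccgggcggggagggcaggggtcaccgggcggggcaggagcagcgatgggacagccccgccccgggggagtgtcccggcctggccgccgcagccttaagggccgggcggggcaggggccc

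CTSA held CACGTG at -42 and -25 from the start, CTSD at -47, and CTSF at -123 and -51, while the whole windows of CTSC, CTSH and CTSZ held none. The word reads the same on both strands. It was present in 2548 of 35116 RefSeq promoter windows of the same length, or 7.26%. The longer palindrome TCACGTGA, also the same on both strands and containing the shorter word, was present in 0.98% of windows and among these members in CTSA alone, starting at -26. A match describes letters in a window and is not a binding site, and the lack of one says only that the letters are not in that window.

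Of the genes, CTSA (chr20:45891335-45898820) and CTSZ (chr20:58995185-59007254) lie on chromosome 20. CTSC (chr11:88293592-88337736), CTSD (chr11:1752755-1763927) and CTSF (chr11:66563464-66568606) lie on chromosome 11. CTSK (chr1:150796208-150808260) and CTSS (chr1:150730188-150765778) lie close together on chromosome 1, CTSH (chr15:78921058-78945046) on chromosome 15, CTSO (chr4:155924118-155953866) on chromosome 4 and CTSB on chromosome 8, all in GRCh38.p14. The files used here do not place the probes within the transcripts.

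All 10 genes passed the filter on dim probes, which kept probes brighter than the array's background on at least 2 arrays, and 12748 genes were tested. Levels below are log2 normalized signals per array, comparable between arrays for a probe but not between probes. As a check of the drug, DUSP6, an ERK-induced phosphatase, stood at 13.30 and 13.01 in DMSO and at 9.14 to 10.38 on the 12 PLX4720 arrays. Raw signals had medians of 366 and 370 in DMSO against 232 to 316 under PLX4720, so array background moved with treatment, and these cannot be told apart where DMSO is the reference. The DMSO arrays also differed most from each other, with 6.98% of genes over 2-fold apart against 0.526% to 1.24% between the replicates of the treated groups.

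The main pattern over time was a rise of 5 cathepsins, CTSK, CTSA, CTSF, CTSD and CTSB, that was not called at 12 h, was called for 4 of them at 24 h and for all 5 from 48 to 96 h. CTSC, CTSH, CTSO and CTSZ were not called at 96 h, and the last pair was lower at 12 h. The signal of CTSS was at background on 12 of 14 arrays. In bulk RNA, a change in the mix of cells and a change of RNA per cell cannot be told apart, here within a single line.

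**Figure D1:**
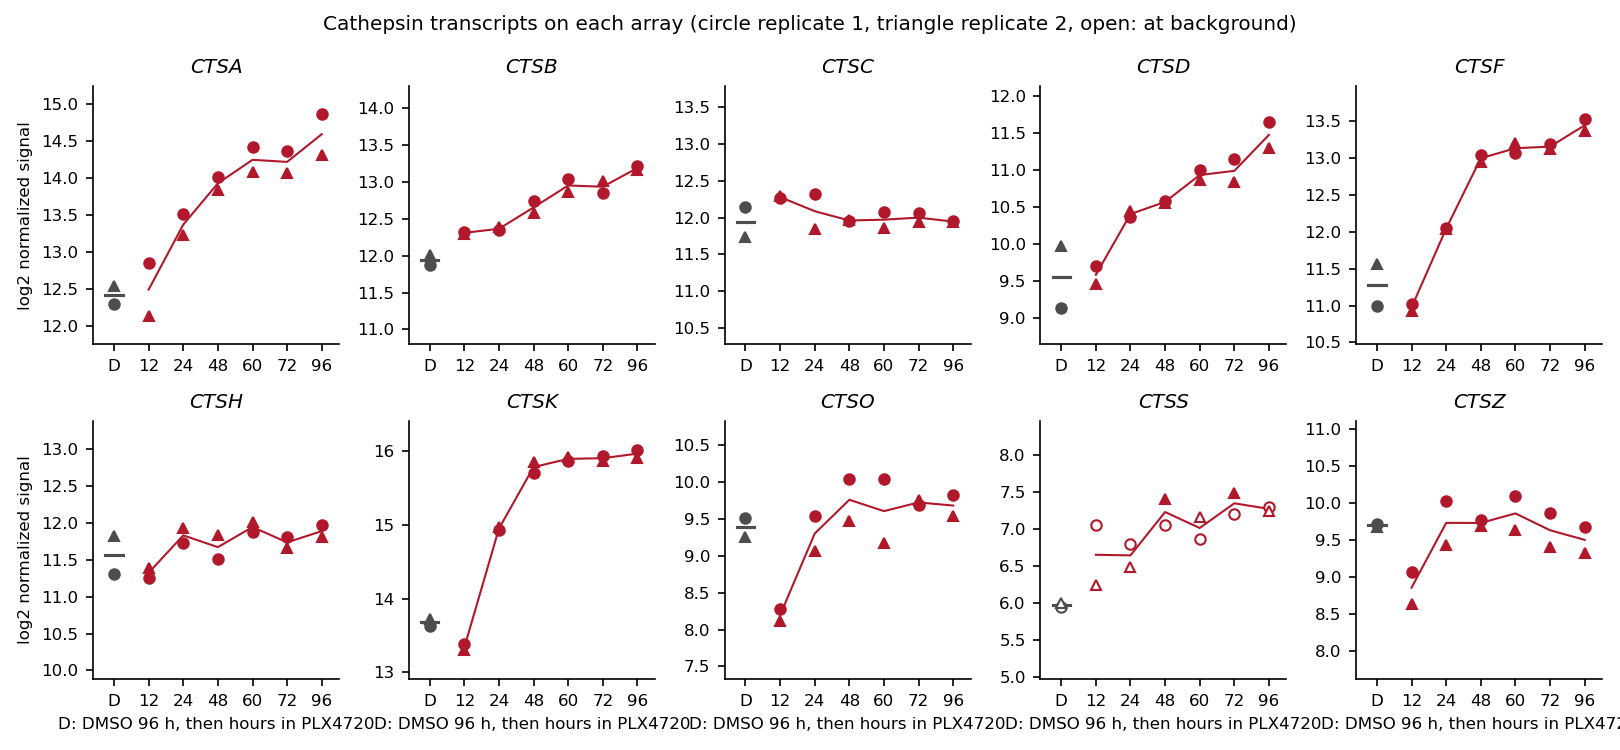
Log2 normalized signal (y axes, each spanning 3.5 units) of the probe used for each cathepsin on all 14 arrays, with DMSO at 96 h (D, grey) and PLX4720 by hours (red); circles are replicate 1, triangles replicate 2, open symbols are not above background, and lines join group means. CTSA, CTSB, CTSD, CTSF and CTSK climb under the drug, CTSO and CTSZ dip at 12 h, CTSC and CTSH move little, and CTSS is open on 12 of 14 arrays.

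CTSK, the collagen-cutting cysteine protease best known from osteoclasts, had the largest log2 difference from DMSO at 96 h, although those of CTSA and CTSF lay within 1 SE of it. CTSK read 13.64 and 13.72 in DMSO, 13.38 and 13.30 at 12 h and 14.93 and 14.98 at 24 h on the log2 scale. The 48 h arrays read 15.71 and 15.86, those of 60 h 15.87 and 15.92, those of 72 h 15.94 and 15.87 and those of 96 h 16.02 and 15.91. Both 12 h arrays were below both DMSO arrays and every array from 24 h on was above them. CTSK was 2.41-fold higher than DMSO at 24 h (log2 1.27, SE 0.15, limma adjusted p = 8.07e-05) and 4.88-fold higher at 96 h (log2 2.29, SE 0.15, limma adjusted p = 4.70e-07), which ranked 80 of 12748 genes. At 12 h it was not called (log2 -0.34, limma adjusted p = 0.157). From 48 h its raw signal was 74.8% to 96.0% of the brightest probe of the array, against 31.6% and 32.5% in DMSO, so its late values lie near the top of the scale and the flat course from 48 h was read there.

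CTSF, a widely expressed cysteine protease whose gene is mutated in a neuronal ceroid lipofuscinosis, was also higher from 24 h on. In DMSO the log2 signals were 10.99 and 11.56, after 12 h 11.02 and 10.93 and after 24 h 12.05 and 12.04. Later values were 13.04 and 12.95 (48 h), 13.07 and 13.20 (60 h), 13.19 and 13.12 (72 h) and 13.52 and 13.36 (96 h). On this normalized scale the 12 h arrays overlapped the DMSO arrays, and all later arrays were above both. Before normalization the 24 h arrays (5306 and 3529) lay on both sides of DMSO (3834 and 4852). The rise was 1.70-fold at 24 h (log2 0.77, SE 0.19, limma adjusted p = 0.0130) and 4.49-fold at 96 h (log2 2.17, SE 0.19, limma adjusted p = 3.62e-06). CTSF and CTSK were the only members called in the step from 24 to 48 h, by log2 0.95 (SE 0.19, limma adjusted p = 0.0116) and 0.83 (SE 0.15, limma adjusted p = 0.00697).

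CTSA, the protective protein that binds and stabilises β-galactosidase (GLB1) and neuraminidase (NEU1), is a carboxypeptidase in its own right. Its DMSO arrays read 12.29 and 12.53, its 12 h arrays 12.85 and 12.12 and its 24 h arrays 13.51 and 13.23. It then read 14.01 and 13.84 after 48 h, 14.42 and 14.08 after 60 h, 14.37 and 14.06 after 72 h and 14.87 and 14.32 after 96 h. On this normalized scale the 12 h arrays lay on both sides of the DMSO arrays, and every array from 24 h on was above them. Before normalization the 24 h arrays (13824 and 8097) lay on both sides of DMSO (9020 and 9955). The rise was 1.94-fold at 24 h (log2 0.96, SE 0.26, limma adjusted p = 0.0203) and 4.54-fold at 96 h (log2 2.18, SE 0.26, limma adjusted p = 4.51e-05). Replicate 1 was the higher of the pair in all 6 treated groups and the lower in DMSO.

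CTSD, the lysosome's main aspartic endopeptidase, cuts unfolded proteins in their interior and was higher from 24 h on. CTSD read 9.13 and 9.97 in DMSO, 9.71 and 9.46 at 12 h and 10.37 and 10.44 at 24 h on the log2 scale. The 48 h arrays read 10.59 and 10.55, those of 60 h 11.00 and 10.87, those of 72 h 11.15 and 10.83 and those of 96 h 11.65 and 11.31. The DMSO arrays were 0.84 apart, the widest DMSO gap of the group, yet on this normalized scale all arrays from 24 h on were above both. Raw signals were 1210 and 1656 in DMSO and overlapped with those from 24 h (1818 and 1245) to 72 h (2538 and 1627). At 96 h the raw signals, 3275 and 1853, were above both DMSO arrays. The rise was 1.81-fold at 24 h (log2 0.85, SE 0.25, limma adjusted p = 0.0265) and 3.80-fold at 96 h (log2 1.93, SE 0.25, limma adjusted p = 7.69e-05). Against replicate 2 of DMSO alone the 96 h difference was log2 1.51 and against replicate 1 alone 2.35, both called.

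CTSB, an abundant cysteine endopeptidase that also trims dipeptides from protein ends, rose later and less. In DMSO the log2 signals were 11.88 and 12.01, after 12 h 12.33 and 12.29 and after 24 h 12.34 and 12.38. Later values were 12.74 and 12.57 (48 h), 13.04 and 12.86 (60 h), 12.85 and 13.02 (72 h) and 13.22 and 13.16 (96 h). On this normalized scale every treated array was above both DMSO arrays, but the difference was first called at 48 h (1.63-fold, log2 0.71, SE 0.16, limma adjusted p = 0.00604). At 96 h it was 2.37-fold (log2 1.24, SE 0.16, limma adjusted p = 8.41e-05). Raw signals were 6804 and 6721 in DMSO, 6035 and 4342 at 12 h, and 9315 and 6834 at 96 h. Before normalization the 12 h arrays were thus below DMSO and the 96 h arrays above it. The second CTSB probe was called from 60 h on, with log2 1.51 (SE 0.26) at 96 h in the fit over all probes.

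CTSO and CTSZ were the members that were lower early. CTSO is a little-studied cysteine protease of many tissues. Its DMSO arrays read 9.51 and 9.26, its 12 h arrays 8.28 and 8.11 and its 24 h arrays 9.54 and 9.06. It then read 10.05 and 9.47 after 48 h, 10.03 and 9.18 after 60 h, 9.69 and 9.76 after 72 h and 9.83 and 9.53 after 96 h. Both 12 h arrays stood below all other arrays of the series. CTSO was 2.28-fold lower than DMSO at 12 h (log2 -1.19, SE 0.28, limma adjusted p = 0.0113), and 24 h was 2.15-fold above 12 h (log2 1.11, limma adjusted p = 0.0223). At 96 h it was not called against DMSO (log2 0.30, 95% interval -0.31 to 0.90).

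CTSZ, also called cathepsin X, is a carboxypeptidase that carries an integrin-binding sequence in its propeptide. CTSZ read 9.72 and 9.68 in DMSO, 9.07 and 8.64 at 12 h and 10.03 and 9.43 at 24 h on the log2 scale. The 48 h arrays read 9.77 and 9.70, those of 60 h 10.09 and 9.63, those of 72 h 9.87 and 9.40 and those of 96 h 9.67 and 9.33. The 12 h arrays were again the lowest of all 14. CTSZ was 1.80-fold lower at 12 h (log2 -0.85, SE 0.25, limma adjusted p = 0.0360), a call lost without either DMSO array (limma adjusted p = 0.0825 and 0.0730), and it rose 1.84-fold from 12 to 24 h (log2 0.88, limma adjusted p = 0.0418). Its difference from DMSO at 96 h was log2 -0.20, with a 95% interval of -0.75 to 0.35. Replicate 1 was the higher of the pair in every group, DMSO included.

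CTSC, the dipeptidyl peptidase that activates the serine proteases of granulocytes and cytotoxic lymphocytes, was the flattest member on its brightest probe. On that probe DMSO stood at 12.14 and 11.74 and the treated arrays at 11.85 to 12.32, so the groups overlapped from 24 h on. Its difference at 96 h was log2 0.00 (95% interval -0.42 to 0.43). Its other probes gave other values: the dimmest was lower at 24 h (log2 -0.79, limma adjusted p = 0.0456) and higher at 72 h (log2 0.90, limma adjusted p = 0.0204) in the fit over all probes, and the remaining pair was called at no time against DMSO.

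CTSH, an aminopeptidase that acts in surfactant protein processing in the lung, had DMSO values of 11.31 and 11.83 and treated values of 11.26 to 12.01 on its brighter probe. No comparison with DMSO was called there, and at 96 h the difference was log2 0.32 (95% interval -0.12 to 0.75). The dimmer CTSH probe read 7.98 and 8.41 in DMSO and 9.15 and 8.84 at 96 h, and it was called at 60 h (log2 0.72, limma adjusted p = 0.0206) and 96 h (log2 0.80, limma adjusted p = 0.00997). Whether CTSH rose by 96 h thus depends on the probe.

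CTSS, the endopeptidase of antigen-presenting cells that cuts the invariant chain of MHC class II, was above background on only 2 arrays, replicate 2 at 48 h (raw signal 288, limit 278) and at 72 h (287, limit 282). Its raw signals were 278 and 280 in DMSO, where the background limits were 411 and 427, and 213 to 319 on the treated arrays, where the limits were 264 to 352. The raw signals of the groups overlap, while the normalized ones do not from 12 h on. It was past the threshold at 48, 60, 72 and 96 h (log2 1.04 to 1.37), but in the deposited values the 96 h difference was log2 0.38. No fold is given, because CTSS was not well above background in DMSO and the bound at 72 h was 1.01-fold.

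**Figure D2:**
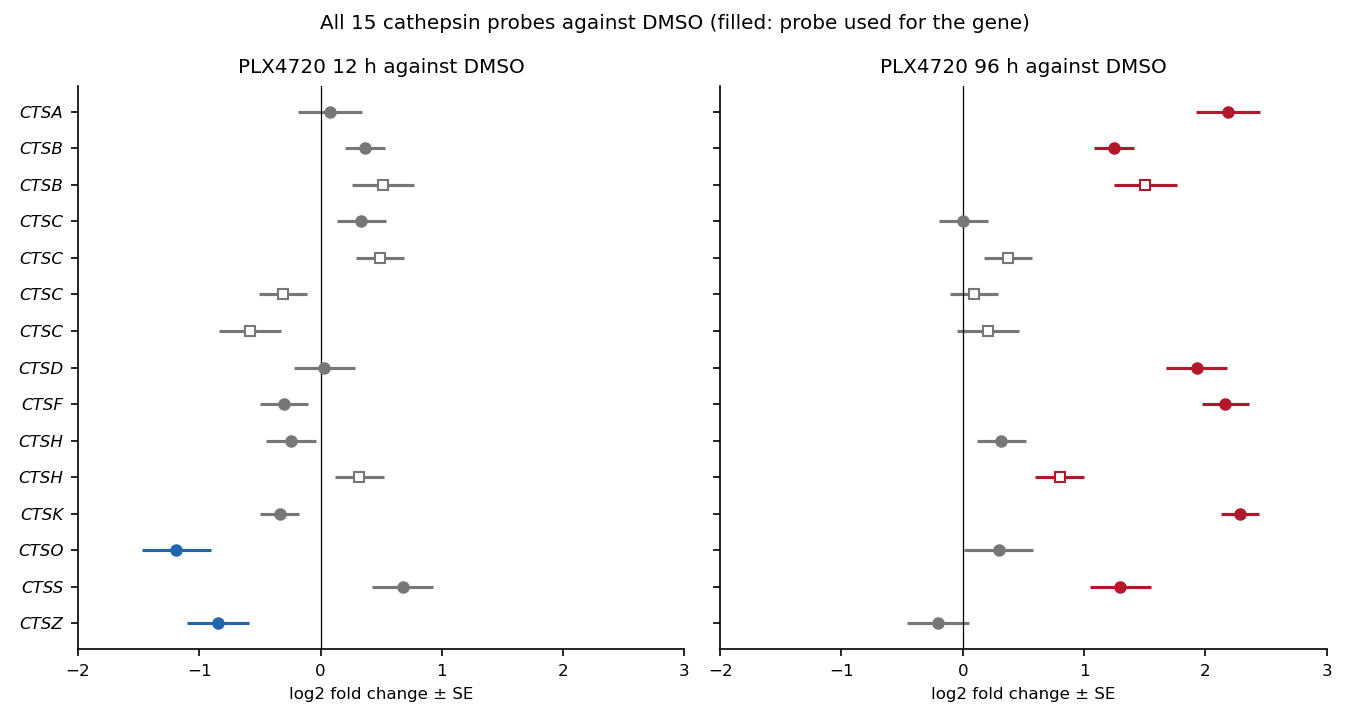
Log2 fold change with SE (x axes) of all 15 cathepsin probes (y axis, by gene) against DMSO, at 12 h on the left and at 96 h on the right, in the fit over all probes; filled circles are the probes used for the genes, open squares the other probes, red higher, blue lower and grey not called. At 12 h the probes of CTSO and CTSZ are lower, and at 96 h those of CTSA, CTSB, CTSD, CTSF, CTSK and CTSS and the dimmer CTSH probe are higher.

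Counted over the 10 members with limma at an adjusted p of 0.05, 0 were higher and 2 lower than DMSO at 12 h, when 9% of the 12748 genes were called higher and 8.25% lower. At 24 h, 4 were higher and 0 lower (CTSA, CTSD, CTSF and CTSK), beside 11.5% of all genes higher and 9.3% lower. At 48, 60, 72 and 96 h the same 6 were higher and 0 lower, beside 13.9%, 14.1%, 15.1% and 16.4% of all genes higher and 11.2%, 11.1%, 12.7% and 13.5% lower. The 6 include CTSS at background, so 5 are measured rises. The members' median log2 difference from DMSO was -0.11 at 12 h, 0.54 at 24 h and 1.27 at 96 h, beside 0.06, 0.09 and 0.07 for all genes. All of these comparisons share the same DMSO arrays, and the members were chosen with earlier results of these data known. Which members were called at 60, 72 and 96 h did not change for CTSA, CTSB, CTSD, CTSF and CTSK under any of 25 alternative settings. Scaling each array to its median instead of quantile normalization moved the median of all genes at 96 h from log2 0.07 to -0.27, with 5.89% of genes higher and 22.6% lower, and there the 5 stood at log2 0.83 to 1.99.

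The 24 h calls were less firm. CTSA, CTSD and CTSF lost theirs without replicate 1 of DMSO or without either 24 h array, which left 1 call of 4, that of CTSK. The 12 h count fell to 1 without replicate 2 of DMSO and to 1 without replicate 2 at 12 h, where CTSO and CTSZ were both lost and CTSS, at background, was called higher. At 48 h, CTSB and CTSD lost their calls without replicate 1 of that time, which left 4.

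**Figure D3:**
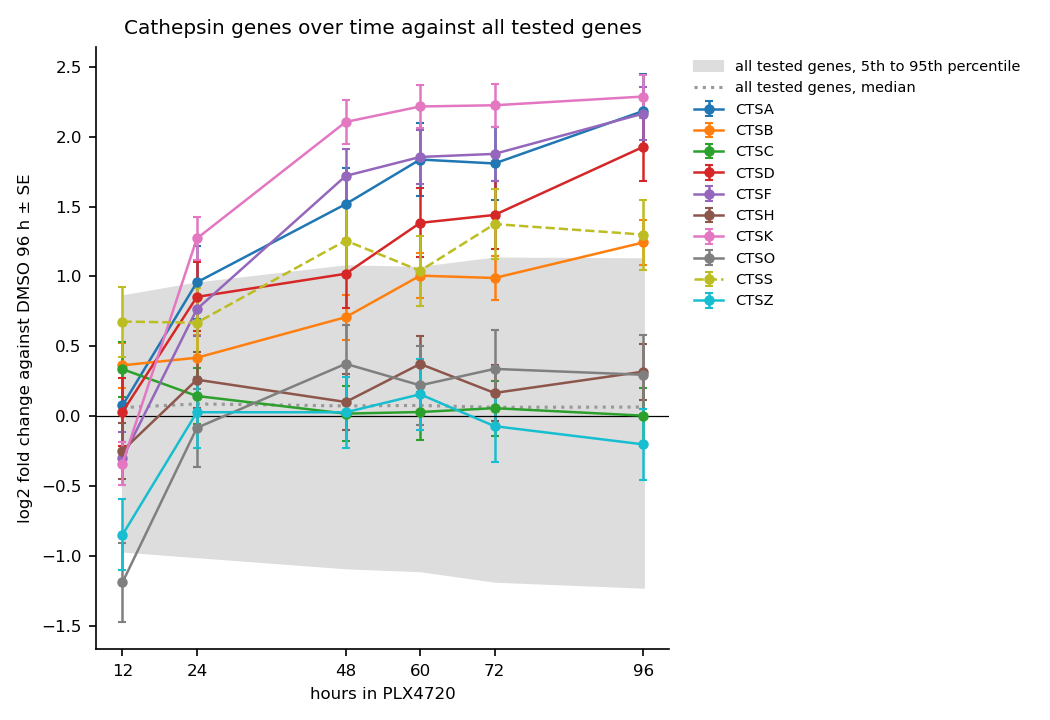
Log2 fold change against DMSO with SE (y axis) of the 10 cathepsins by hours in PLX4720 (x axis), over the 5th to 95th percentile (grey band) and the median (dotted) of all 12748 tested genes; the dashed line is CTSS, which is at background. CTSK, CTSA, CTSF and CTSD leave the band by 60 h and CTSB at 96 h, while CTSC, CTSH, CTSO and CTSZ stay inside it from 24 h on.

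Folds between treated times use no DMSO array beyond the quantile normalization, which took in all 14 arrays. The spread behind their SE and p was pooled over all 7 groups. From 12 to 96 h, CTSA, CTSB, CTSD, CTSF, CTSK and CTSO rose and 0 members fell by limma at an adjusted p of 0.05, beside 15.1% of all genes higher and 14% lower. CTSK rose 6.17-fold (log2 2.63, SE 0.15, limma adjusted p = 1.28e-07) and CTSF 5.53-fold (log2 2.47, SE 0.19, limma adjusted p = 9.53e-07). CTSA rose 4.31-fold, CTSD 3.72-fold, CTSO 2.80-fold and CTSB 1.84-fold. The test among the 6 treated times called the same 6 genes, beside 28% of all genes, and CTSZ missed it with a limma adjusted p of 0.0640. Same-numbered arrays deviated together among the treated groups, and CTSZ was higher in replicate 1 of all 6. With the replicate number as a block, 8 members rose from 12 to 96 h, CTSH (limma adjusted p = 0.0291) and CTSZ (limma adjusted p = 0.0114) besides the 6, beside 18.2% of all genes higher and 16.8% lower. The blocked test among the treated times called 7, CTSZ (limma adjusted p = 0.00673) besides the 6, beside 36.1% of all genes. A fit of the treated arrays alone, chosen after seeing the data, used the same normalized values. In it CTSH was called from 12 to 96 h (limma adjusted p = 0.0168) and CTSZ was not (limma adjusted p = 0.0708), beside 18.3% of all genes higher and 17.6% lower. That fit with the block called both CTSH (limma adjusted p = 0.00905) and CTSZ (limma adjusted p = 0.00380), beside 22.9% higher and 21.8% lower.

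The step from 12 to 24 h had the most members called. In it CTSA, CTSD, CTSF, CTSK, CTSO and CTSZ were higher and 0 members lower, beside 6.03% of all genes higher and 5% lower, although CTSA (limma adjusted p = 0.0473) and CTSD (limma adjusted p = 0.0491) lay near the threshold. From 24 to 48 h, CTSF and CTSK were higher and 0 lower, beside 2.35% of all genes higher and 3.3% lower. In the steps to 60, 72 and 96 h no member was called, at a limma threshold that called 0%, 0% and, in the last step, 0.00784% of all genes higher and 0.0392% lower. Leaving out single arrays of 12, 24 or 48 h took the 8 member steps called to between 2 and 5.

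As a description over the 14 arrays, which share groups and normalization, the 5 rising members moved together, with Pearson correlations of 0.86 (CTSB with CTSK) to 0.98 (CTSF with CTSK). CTSO and CTSZ correlated at 0.82, and CTSC correlated negatively with every other member, from -0.12 to -0.63. The tested genes most like each member by Pearson correlation over the 14 arrays were VXN and ADSS1 for CTSK (0.996 and 0.989), TMEM140 and CYGB for CTSF (both 0.99), TMCC2 and NGFR for CTSA (both 0.99) and GAA and ADA for CTSD (0.99 and 0.98). They were RANBP10 and CDH3 for CTSB (both 0.96), TGFBR2 and MYO10 for CTSO (0.94 and 0.93), KIRREL1 and TM9SF4 for CTSZ (0.91 and 0.89), PEBP1 and ZSWIM8 for CTSH (0.94 and 0.94) and RUNX2 and RTN4 for CTSC (both 0.86). For CTSS, at background, they were GOLGA1 and CNOT10 (0.93 and 0.92).

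Set beside the promoter sequences, the 3 members whose window holds CACGTG, CTSA, CTSD and CTSF, were higher than DMSO at 96 h by log2 1.93 to 2.18, and the 3 without it, CTSC, CTSH and CTSZ, were not called on the probes used. No test was made of this split of 6 genes, which leaves out CTSK and CTSB, the other rising members. Over all tested genes with a promoter window, of 1000 genes with CACGTG, 17.7% were called higher at 96 h against DMSO, and of 9243 without it, 16.5%. The median log2 differences were 0.13 and 0.06.

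**Figure D4:**
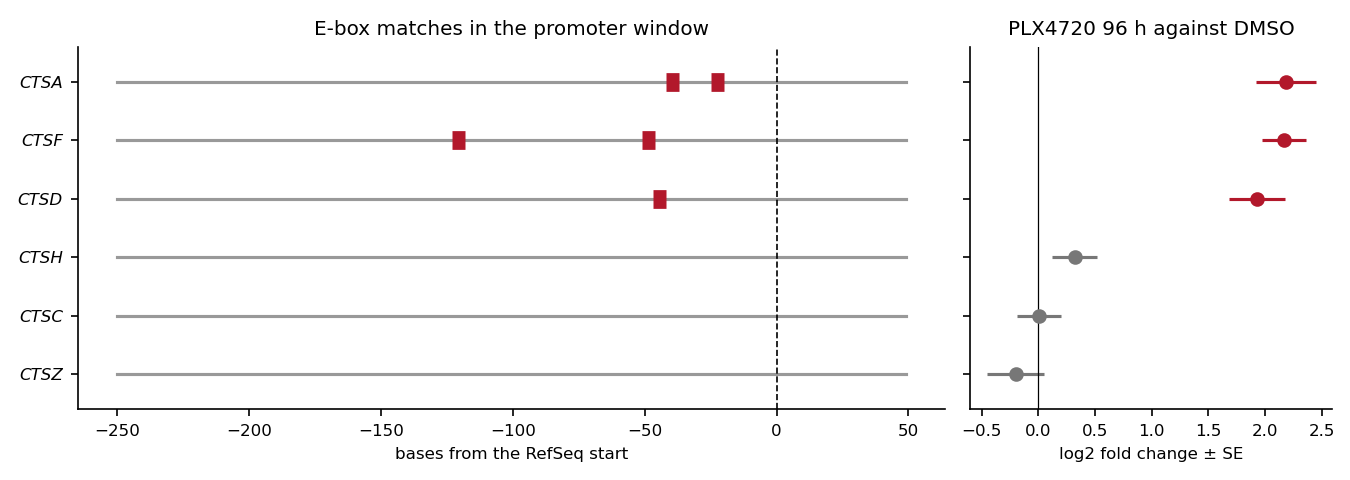
Left, promoter windows of the 6 members whose windows were used, as grey lines (x axis, bases from the annotated start, dashed), with CACGTG matches in red. Right, the log2 fold change of each gene at 96 h against DMSO with its SE, red where called. Matches are drawn for CTSA, CTSF and CTSD, the 3 of these 6 genes called higher. The rising CTSK and CTSB are not shown.

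MITF read 11.01 and 10.03 in DMSO, and under the drug 10.34 and 10.18 (12 h), 11.23 and 11.05 (24 h) and 11.77 and 11.44 (48 h). It then read 11.58 and 11.40 (60 h), 11.63 and 11.78 (72 h) and 11.31 and 11.08 (96 h). Its DMSO arrays were far apart, yet every array from 24 h on was above both. Those from 48 to 72 h, at 11.40 to 11.78, were the highest. The difference from DMSO at 96 h was not called (log2 0.68, SE 0.26, limma adjusted p = 0.0706), and those at earlier times are not given here. For MITF, 96 h was above 12 h (log2 0.94, SE 0.26, limma adjusted p = 0.0165). TFEB was not above background in DMSO and was past the threshold at 96 h (limma adjusted p = 0.0196, measured means 7.73 and 6.82). On the normalized scale it was at least 1.32-fold higher there. Its raw signals overlapped, at 313 and 396 in DMSO and 365 and 287 at 96 h. The background limits were 411 and 427 in DMSO and 320 and 264 at 96 h, so TFEB lay near the limit of detection. TFE3 was not called (log2 0.25, limma adjusted p = 0.413). Of 12 tested genes of the MiT/TFE factors and the RAG, folliculin and mTORC1 proteins that hold them in the cytosol, 5 were higher and 0 lower at 96 h against DMSO, with a median of log2 0.68. In that comparison 16.4% of all genes were higher and 13.5% lower, with a median of 0.07. The counts of the lists that follow stand beside the same shares. With median scaling those shares were 5.89% and 22.6%, and the lists were not recounted there. Of the MiT/TFE list, 7, 6 and 8 genes were higher and 0 lower at 48, 60 and 72 h. Beside them, 13.9%, 14.1% and 15.1% of all genes were higher and 11.2%, 11.1% and 12.7% lower. The largest rises of this list at 96 h were RPTOR, the mTORC1 scaffold (2.00-fold, limma adjusted p = 0.00141), and RRAGD, a RAG GTPase (1.89-fold, limma adjusted p = 0.00113). Raw signals of RPTOR, as shares of the array's brightest probe, overlapped between DMSO (0.864% to 0.938%) and 96 h (0.748% to 1.07%). Those of RRAGD overlapped too (14.59% to 18.29% and 16.01% to 16.35%).

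Inhibitors that hold cysteine cathepsins in check were mostly dim: of 12 cystatins and serpins, 3 were tested at 96 h against DMSO, of which 2 were higher and 0 lower, beside 16.4% and 13.5% of all genes. CSTB, the cytosolic inhibitor stefin B, stood at 13.92 and 14.20 in DMSO, 14.29 and 14.10 after 12 h, and 15.74 and 15.85 after 96 h. It rose 3.33-fold by 96 h (log2 1.74, SE 0.17, limma adjusted p = 8.83e-06), with no overlap, and its raw signal went from 38.3% and 46.1% of the brightest probe of the array to 76.9% and 78.2%, near the top of the scale. CST7, an inhibitor that enters lysosomes, rose 2.43-fold (log2 1.28, SE 0.26, limma adjusted p = 0.00225). Its raw signal was dim, at 0.718% to 0.793% of the brightest probe in DMSO and 0.804% to 0.952% at 96 h. CST3, the main secreted cystatin, was not called (log2 0.18, limma adjusted p = 0.453), and CST6 was not tested because its probe was not above background on 2 arrays.

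Of 11 tested genes that sort enzymes to the lysosome, 4 were higher and 0 lower at 96 h against DMSO, with a median of log2 0.25, beside 16.4% and 13.5% of all genes and a median of 0.07. They were GNPTAB (2.60-fold, limma adjusted p = 0.0163) and GNPTG (2.37-fold, limma adjusted p = 0.000529), subunits of the enzyme that starts the mannose 6-phosphate tag. The others were NAGPA, which uncovers it (1.96-fold), and IGF2R, the large receptor that reads it (1.88-fold). As a share of the array's brightest probe, IGF2R raw signal was 33.1% to 34.6% in DMSO and 32.1% to 32.3% at 96 h. The shares of NAGPA (4.49% to 5.98% and 4.63% to 6.06%) and GNPTAB (2.10% to 6.21% and 3.26% to 7.26%) overlapped. That of GNPTG was higher at 96 h (4.26% to 4.73% and 4.82% to 6.42%). Among 5 partners and processing factors, 2 were past the threshold upward and 0 downward, beside the same shares, with a median of log2 0.46. GRN, whose protein is cut into granulins in the lysosome, rose 2.09-fold (limma adjusted p = 0.000515). Its raw signal was 8.13% to 8.35% of the array's brightest probe in DMSO and 8.84% to 9.23% at 96 h. PSAP, the saposin precursor, was also past the threshold (limma adjusted p = 0.00137), but its raw signal was 83.5% to 88.0% of the array's brightest probe in DMSO and 80.6% to 85.9% at 96 h, so both groups lay near the top of the scale and no fold is given. LGMN, the protease that trims cathepsin precursors, was not called (log2 0.32, limma adjusted p = 0.203).

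Of 6 other lysosomal peptidases tested, 3 were higher and 1 lower at 96 h against DMSO, with a median of log2 0.65, beside 16.4% and 13.5% of all genes. TPP1, a tripeptidyl peptidase, rose 2.42-fold (limma adjusted p = 0.000498) and SCPEP1, a relative of CTSA, rose 2.28-fold (limma adjusted p = 0.000154). CPVL, another serine carboxypeptidase, fell to background and was at least 1.28-fold lower (limma adjusted p = 6.18e-05, measured means 5.73 and 7.75). Of 17 genes of the lysosomal membrane and proton pump, 9 were higher and 1 lower, beside the same shares, with a median of log2 0.53. The calcium channel MCOLN1 rose 2.68-fold (limma adjusted p = 0.000187) and the pump subunit ATP6V1B2 rose 1.96-fold (limma adjusted p = 0.000551). The cholesterol exporter NPC1 was 1.43-fold lower (limma adjusted p = 0.0436). As shares of the array's brightest probe, raw signals of ATP6V1B2 overlapped between DMSO (54.9% to 55.1%) and 96 h (53.0% to 60.6%). Those of TPP1 overlapped too (19.1% to 20.7% and 19.7% to 31.5%), and those of SCPEP1 and MCOLN1 were higher at 96 h.

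Of 8 tested genes for proteins outside the cell that cathepsins can cut, 2 were higher and 2 lower at 96 h against DMSO, with a median of log2 0.31. Among so few genes these counts lie near the background of 16.4% higher and 13.5% lower and are no result about the list. FN1, fibronectin, was 2.05-fold higher and COL4A2, a basement membrane collagen, 1.99-fold higher. The laminin chain LAMB1 was 2.77-fold lower and COL1A2, a fibrillar collagen chain, 1.76-fold lower. As shares of the array's brightest probe, raw signals of FN1 overlapped between DMSO (0.837% to 0.914%) and 96 h (0.800% to 0.977%). Those of COL4A2 overlapped too (2.68% to 3.11% and 2.30% to 3.70%), and those of LAMB1 and COL1A2 were lower at 96 h. Among 12 ERK output genes, 0 were higher and 9 lower, beside the same shares, with a median of log2 -2.21, led by SPRY4 (38.8-fold lower) and ETV5 (13.8-fold lower). Already at 12 h, 0 of these ERK output genes were higher and 11 lower than DMSO, with a median of log2 -1.80. In that comparison 9% of all genes were higher and 8.25% lower. From 12 to 96 h, 6 were higher and 0 lower, with a median of log2 0.57, beside 15.1% and 14% of all genes. A link between these genes and the cathepsins was not tested.

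**Figure D5:**
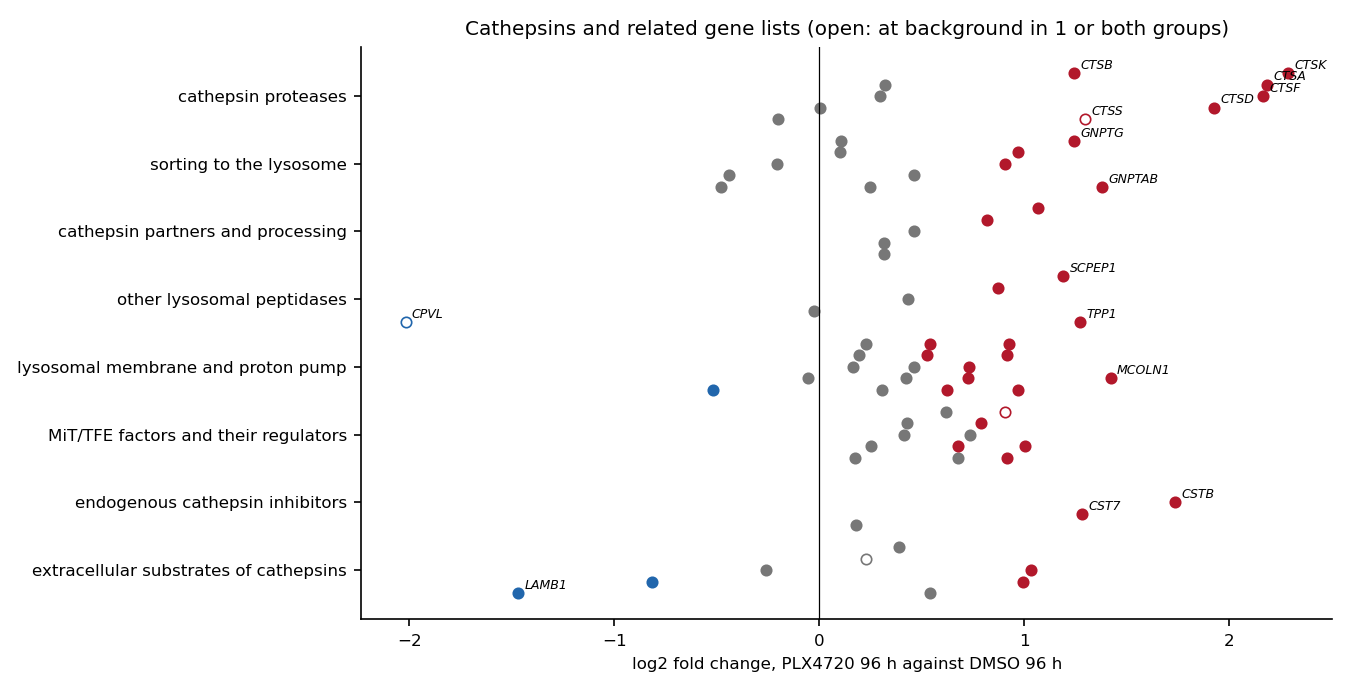
Log2 fold change at 96 h against DMSO (x axis) of the cathepsins and of 7 lists of related genes (y axis), a circle per tested gene, red where called higher, blue where lower, grey where not called and open where the gene was not above background on any array of a group; called genes beyond 1.1 either way carry names. CTSK, CTSA, CTSF and CTSD lie to the right of every gene of the related lists.

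Other cells rich in cathepsins were looked for by their markers. Of 13 leukocyte and macrophage markers, PTPRC, TYROBP, FCER1G, ITGAM, CSF1R, CD163 and CD3E were at background in every group. CD14, CD68, AIF1, ITGB2 and CD2 were above background in DMSO and at 96 h, and LYZ in DMSO but not at 96 h. At 96 h against DMSO the 6 tested had a median of log2 0.40, beside 0.07 for all genes. CD2 (2.67-fold) and CD68 (1.47-fold), the latter a lysosomal membrane protein, were higher and 0 were lower, beside 16.4% and 13.5% of all genes. As a share of the array's brightest probe, CD68 raw signal was 34.4% to 40.6% in DMSO and lower, 26.9% to 29.1%, at 96 h. CD2 was dim, at 0.600% to 0.629% in DMSO and 0.671% to 0.867% at 96 h. The summed raw signal of the 13 was 41316 to 46722 in DMSO and 29143 to 35995 at 96 h, while the array medians of raw signal went from 366 and 370 to 283 and 232. Of 9 fibroblast markers, COL1A1, COL3A1 and PDGFRA were at background in every group, 0 of 5 tested were higher at 96 h and 2 were lower, with a median of log2 -0.68, and the summed raw signal was 41669 to 45755 in DMSO and 9824 to 13866 at 96 h.

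Markers of the line's own melanocytic identity also moved. Of 9 tested melanocytic markers, 5 were higher and 1 lower at 96 h against DMSO, with a median of log2 0.74, and the list's summed raw signal was 34942 to 42487 in DMSO and 28298 to 42227 at 96 h. PMEL, which forms the fibrils of the melanosome, a lysosome-related organelle, rose 31.1-fold (limma adjusted p = 3.56e-08), MLANA was at least 1.47-fold higher, and S100B was 5.77-fold lower (limma adjusted p = 2.70e-05). As a share of the array's brightest probe, PMEL raw signal was 0.503% to 0.653% in DMSO and 4.83% to 7.75% at 96 h. That of S100B was 1.97% to 2.29% in DMSO and 0.338% to 0.470% at 96 h. Each of these folds thus rests on a group with dim signal, and its size is uncertain. MLANA, TYR and GPR143 were at background in DMSO. Of the keratinocyte markers, KRT5, KRT1 and DSG3 were at background in every group and KRT14 at 96 h and in DMSO, and of the endothelial markers CDH5 and VWF were at background in every group. Their tested genes numbered 2 each, and the only call at 96 h was KRT14, at background in both groups. The part of these marker changes in the cathepsin result was not tested.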

How the data were processed

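Total RNA from WM9 cells was hybridised to 14 Illumina arrays. Per the file headers and values, the deposited unnormalized table held 1 linear signal intensity per probe and array for 47322 probes. The deposited normalized table held log2 values, quantile normalized by the authors (once sorted, the arrays were within 0.01 of each other), and served as an alternative. Scanner and software: not given in the sources used here. Because 28 detection columns of the unnormalized table were empty, neqc was replaced by limma's normexp (saddle, offset 16), followed by log2 and quantile normalization.

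Background was the mode of an array's signals plus a margin that a normal spread, estimated from the values below the mode, exceeds in 1% of cases, and 37.6% to 40.9% of probes per array exceeded it. Names came from the platform annotation (30113 probes with 1 gene, 8 with several, 17201 unnamed, and 30074 matched to RefSeq symbols of GRCh38.p14). Each gene took its brightest probe that passed background on 2 arrays or more. Where a gene was not above background on any array of a group, its own value or, if higher, the lowest passing value of the array was the reference, and the fold is written as at least that size. Log2 values were fitted over all 7 groups by limma 3.58.1 (lmFit, eBayes; R 4.3.3) (7 residual and 5.87 prior degrees of freedom), two-sided, with Benjamini-Hochberg adjustment over 12748 genes at 0.05. SE is that of the log2 fold change. The fit over all probes was adjusted over all named probes above background. The code was tested on simulated data. The number of arrays limits the precision.

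Members and the 8 gene and 5 marker lists were chosen with earlier results of these data known. Named were all members, in each list the 2 largest rises and 2 largest falls called at 96 h against DMSO, MITF, TFEB, TFE3, CST3, CSTB, CST6, LGMN, PSAP, SPRY4 and DUSP6 whatever their result, and the 2 genes most correlated with each member. NAGPA and IGF2R were named after their values were seen. Alternatives covered the background correction, normalization, filter, probe choice, array weights, a replicate block and leaving out each array. The labels state no pairing. The deviations of same-numbered arrays from their group means correlated over genes at 0.15 to 0.42 in all 15 pairs of treated groups. Between DMSO and the treated groups the correlations were -0.20 to 0.42. The main fit was unpaired, and fits with the replicate number as a block are given beside it. Replicate 1 also had the higher raw median in every treated group, and the source of the shared deviations was not tested.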

Additional observations from a re-analysis of the deposited data

Results flagged for a closer look

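For 6 members the difference from DMSO at 96 h was not the one at 12 h. Because both comparisons use the same DMSO arrays, the test of that difference is 96 h against 12 h itself, by limma with an adjusted p under 0.05 and with no overlap between the arrays of the groups. On the log2 scale, 96 h minus 12 h was 2.11 for CTSA, 0.88 for CTSB, 1.90 for CTSD, 2.47 for CTSF, 2.63 for CTSK and 1.49 for CTSO. In CTSO the difference came with a 12 h level below DMSO, and in the other genes with a 96 h level above it. No group had enough arrays to be searched for an outlying array.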

How the results depend on the processing

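Over 25 alternatives, 14 of which left out an array, 1638 of 1743 member values kept their direction and side of the threshold, 34 lost a call, 26 gained one, 0 called values turned, and 45 values changed sign with neither side called. The count of cathepsins called at 12 h, 2 in the report, was 4 in the deposited values (1 higher, 3 lower), 1 with no filter on dim probes and 0 with array weights. At 24 h it was 1 with median scaling, 2 with no filter and 1 with array weights, against 4. The steps called, 8 in the report, were 4 with median scaling and 4 with no filter. The unfiltered setting adjusts over more genes. The cause of the other moves was not tested. Leaving out each array in turn gave 1 to 2 genes at 12 h, 1 to 5 at 24 h, 4 to 6 at 48 h, 5 to 7 at 60 h, 6 to 6 at 72 h, 6 to 7 at 96 h and at 96 h against 12 h, 5 to 7 among the treated times, and 2 to 8 steps. A group left with 1 array is assumed to vary like the others. CTSS lay at the limit of detection, and its 96 h difference ranged from log2 0.38 to 1.33.

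With the replicate number as a block, the counts were 2 at 12 h, 5 at 24 h, 6 at each later time against DMSO, 8 at 96 h against 12 h, 7 among the treated times and 8 steps. Beyond the calls named in the report, CTSB was called at 24 h against DMSO (limma adjusted p = 0.0493). Fitting the treated arrays alone, chosen after seeing the data, gave 7 at 96 h against 12 h, 6 among the treated times and 8 steps, and with the block 8, 8 and 11.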
